A study of Mus musculus with 9 samples.

Results

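Translation initiation and elongation factors were examined in C2C12 myotubes, the multinucleated cells formed by a mouse myoblast line. The genes were taken by name alone: each row of the table whose symbol started with Eif and a digit, with Eef1 or with Eef2 was included, which gave 66 of 10716 genes. No measured value entered that choice, but the table itself held only genes above 1 in every library. The set therefore holds the factors themselves, the eIF4E-binding inhibitors (Eif4ebp), the kinases that phosphorylate eIF2 (Eif2ak), the enzymes that modify elongation factors, and a few gene copies. RNA sequencing covered 3 groups of 3 libraries, all after 24 h of treatment: vehicle alone, 50 µM dexamethasone, or the same dose of dexamethasone combined with 10 µM THSG. Dexamethasone is a synthetic glucocorticoid that is widely used to bring on atrophy of cultured muscle cells. THSG is given only as an abbreviation, there was no group with THSG alone, and every THSG library also received dexamethasone. Nothing in the labels says that the libraries came from separate cultures, so the p-values measure only the spread between these libraries, which may be technical.

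Protein synthesis starts when eIF2 brings the initiator tRNA to the small ribosomal subunit, with eIF1, eIF1A, eIF3 and eIF5 guiding the search for a start codon. The mRNA is delivered by eIF4F, made of the cap-binding protein eIF4E, the scaffold eIF4G and the helicase eIF4A. In the elongation phase eEF1A carries aminoacyl-tRNAs to the ribosome and eEF2 moves the ribosome along the mRNA. Muscle cells control these steps largely after transcription: mTORC1 phosphorylates 4E-BP proteins to free eIF4E, and stress kinases phosphorylate eIF2. RNA levels, which are what was measured here, do not report those modifications.

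The values are taken to be FPKM, fragments scaled to gene length and library size. Every value in the table was above 1, the library sums ran from 400218 to 422379 FPKM, and the number of reads behind each value is unknown. Mitochondrially encoded genes took 14% of the sum in dexamethasone replicate 3 and 10.5% to 12% in the other libraries. Of the myotube markers 12 of 12 were in the table, with a summed level of 6112 to 6615 FPKM in vehicle, 7035 to 7580 with dexamethasone and 7449 to 7618 with THSG added. Of these 12 markers 7 rose with dexamethasone and 0 fell (limma adjusted p under 0.05). At that threshold 12.7% of all genes rose and 20.9% fell, the shares to set beside each marker list. Cycling-cell markers (6 of 7 in the table, Mki67 not among them) summed to 50.0 to 56.1 FPKM in vehicle, 17.5 to 21.1 with dexamethasone and 18.4 to 20.9 with THSG added, and 6 fell. Fibroblast-like markers (4 of 6 in the table) summed to 724 to 780, 397 to 412 and 426.6 to 427.1 FPKM in the same order, with 3 lower and 1 higher. Reserve-myoblast markers (6 of 6) summed to 96.2 to 105, 84.1 to 100.03 and 96.0 to 100.13 FPKM, with 2 higher and 3 lower, and 0 of 5 adipocyte markers were in the table. The part of these shifts in the changes described next was not tested, and in bulk RNA fewer cells of a type and less RNA per cell cannot be told apart.

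In vehicle-treated myotubes the 66 genes covered a wide range of levels. On the per-length FPKM scale the lowest mean was 1.55 for Eif1ad7, the median was 42.7, and the highest was 3180 for Eef1a1, which encodes the main tRNA carrier of elongation. Together the genes made up 1.98% to 2.01% of the FPKM sum in the vehicle libraries, 1.99% to 2.04% with dexamethasone and 2.00% to 2.06% with THSG added. The ranges overlapped, and the mean difference of dexamethasone from vehicle was 0.0268 percentage points (exact permutation test, two-sided, p = 0.3, where 0.1 is the smallest p that 3 against 3 libraries allow). The value rested on how the sum was taken, since it was 0.0642 without mitochondrially encoded genes and 0.0402 without dexamethasone replicate 3, both at the smallest exact p of 0.1, and 0.0173 without dexamethasone replicate 2 (exact p = 0.5).

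Dexamethasone changed individual members in both directions. Of the 66 genes, 17 (25.8%) passed the test against vehicle, 8 higher and 9 lower, at a limma adjusted p under 0.05 over all 10716 genes. Across the whole table the share was 33.6%, with 12.7% higher and 20.9% lower, so the translation factors were called no more often than genes in general. The median log2 fold change was -0.03 for the members and -0.05 for all genes, and the median size regardless of direction was 0.10 and 0.16. In 30 members the 3 dexamethasone libraries did not overlap the 3 vehicle libraries (13 higher, 17 lower), against 45.9% of all genes (18% higher, 27.9% lower). Most changes were small: 44 of 66 members had a 95% interval lying wholly within a 1.25-fold change, beside 4211 of all 10716 genes. The median half-width of the interval was 0.14 in log2 for members and 0.18 for all genes. These counts therefore reflect precision as well as size of change. Of the members 1, Eif1ad7, changed by 2-fold or more, as did 2.9% of all genes. How many were higher or lower depended on the scaling. There were 11 higher and 7 lower (61.1% higher) under median-ratio scaling, against 8 and 9 (47.1% higher) with the values as deposited. The whole table shifted too, from 1362 higher and 2239 lower as deposited to 1739 and 1766 under median-ratio scaling.

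**Figure D1:**
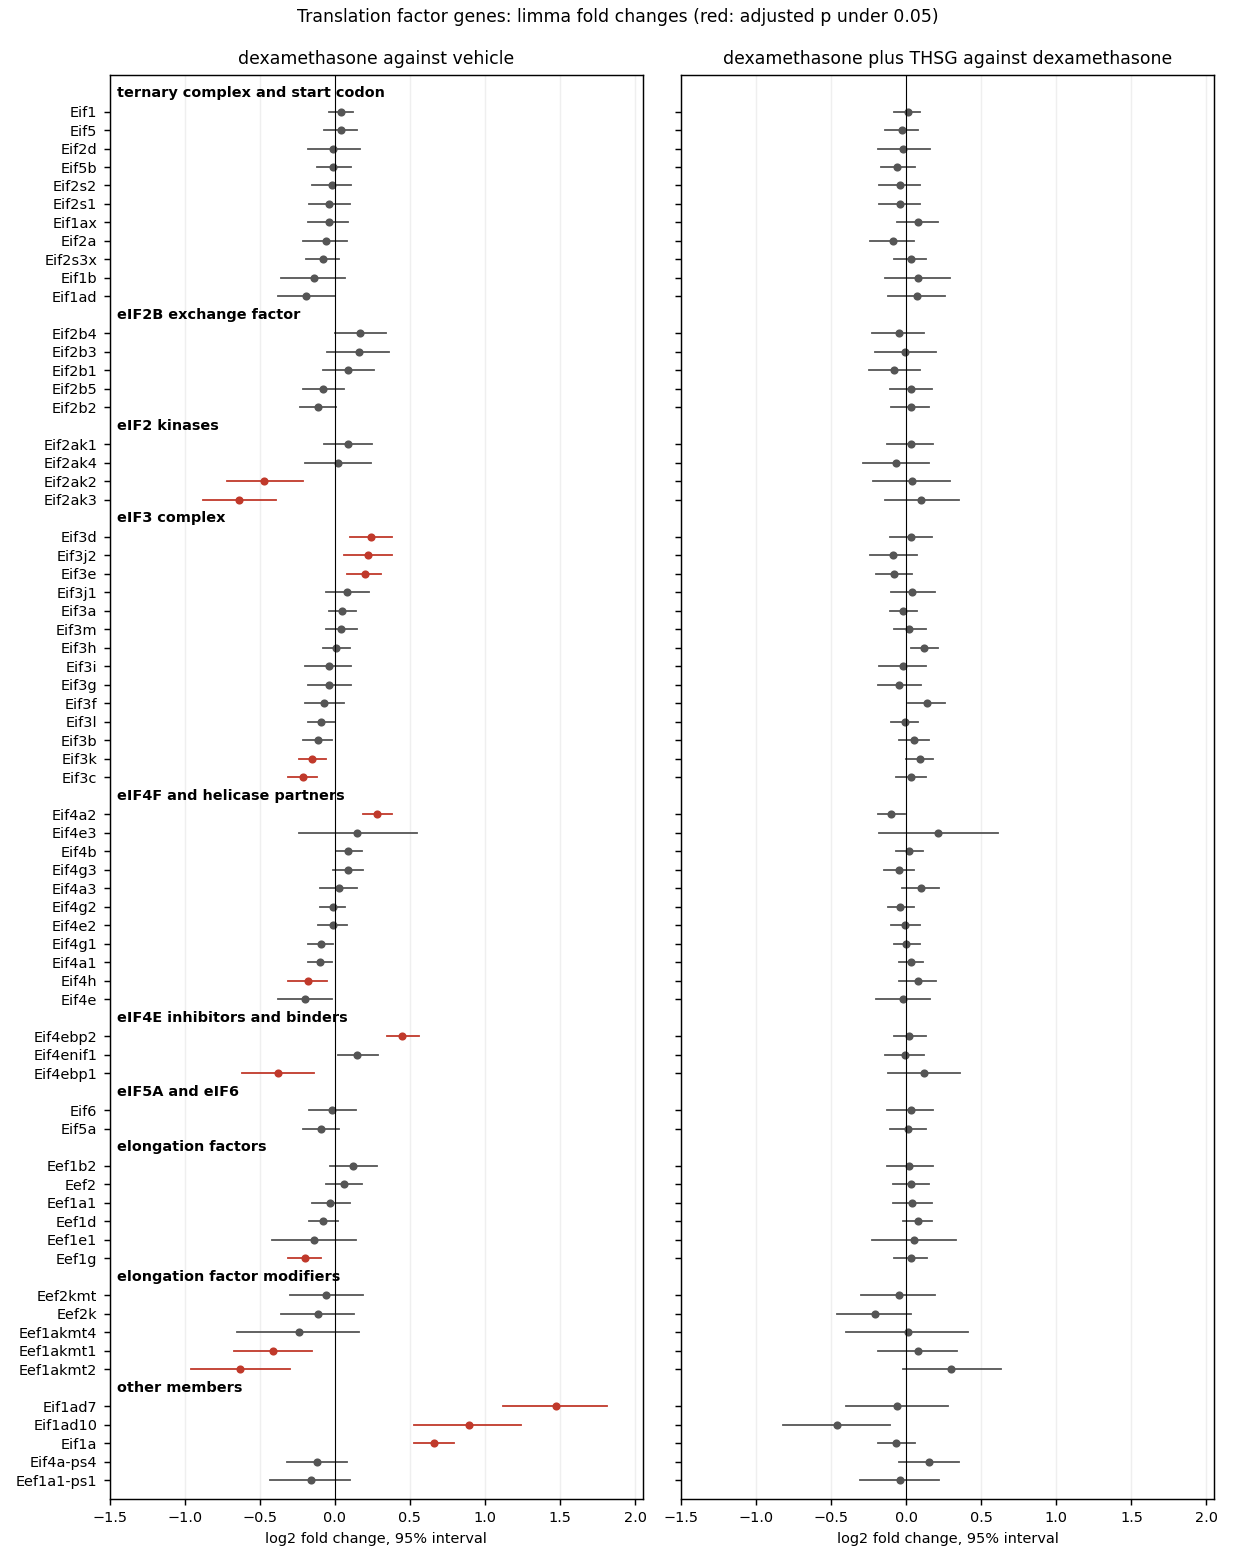
Log2 fold change of each of the 66 genes with its 95% interval, by role, for dexamethasone against vehicle (left) and dexamethasone plus THSG against dexamethasone (right), with genes at an adjusted p under 0.05 in red. On the left 17 genes are red, from Eif2ak3 at -0.64 to Eif1ad7 at 1.47, and on the right 0 are.

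The 4E-BP inhibitors moved in opposite directions. These small proteins bind eIF4E and keep it from the scaffold eIF4G until mTORC1 phosphorylates them. Eif4ebp2 stood at 26.5, 27.3 and 28.5 FPKM in the vehicle libraries, 37.1, 39.1 and 36.5 with dexamethasone, and 37.2, 39.0 and 38.5 with THSG added. All 6 dexamethasone-treated libraries were above all vehicle libraries. Dexamethasone raised it from 27.4 ± 0.98 to 37.6 ± 1.4 FPKM (SD, n = 3 each), which is 0.45 ± 0.049 in log2 (difference ± SE, limma adjusted p = 2.39e-05). Eif4ebp1 measured 13.9, 12 and 11 FPKM in vehicle, 10.4, 9.42 and 8.45 with dexamethasone, and 10.1, 11.4 and 9.21 with THSG added. Every dexamethasone library lay below every vehicle library, though the nearest values were close. Its fall was -0.38 on the log2 scale (SE 0.11, limma adjusted p = 0.0203), and the call was lost without vehicle replicate 1 (adjusted p = 0.0841) or without dexamethasone replicate 3 (0.0786). Eif4enif1, the eIF4E transporter, measured 16.5, 15.4 and 14.8 FPKM in vehicle and 17.7, 16.5 and 17.7 with dexamethasone, without passing the test (log2 fold change 0.15, adjusted p = 0.0707). It passed under each of 3 other scalings (limma adjusted p = 0.0216 to 0.044) and without vehicle replicate 1 (0.0397).

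A ratio of 2 genes in the same library does not change with a single scaling factor for that library. It can change under quantile normalization or a GC and length correction, with which the ratios were not rerun. The log2 ratio of Eif4ebp1 to Eif4ebp2 was -0.93, -1.18 and -1.37 in the vehicle libraries, -1.83, -2.04 and -2.10 with dexamethasone, and -1.87, -1.76 and -2.05 with THSG added. The vehicle libraries stood apart from all others. The mean difference of dexamethasone from vehicle was -0.83, that is 0.563 times the vehicle ratio, and the exact permutation test gave the smallest p it could (two-sided p = 0.1, Benjamini-Hochberg adjusted p = 0.4 over 12 comparisons of ratios and summed level). Against Eif4e itself the Eif4ebp1 ratio overlapped between the groups, with a mean difference of -0.18 (exact p = 0.2), which was -0.09 without vehicle replicate 1 and -0.26 without vehicle replicate 2.

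Among the 11 genes listed for eIF4F and its helicase partners, 1 rose and 1 fell. A gene on this list need not be a subunit of eIF4F. The paralogous eIF4A helicases, which unwind structure near the cap, separated. Eif4a2 was at 194, 200 and 192 FPKM in vehicle, 238, 229 and 246 with dexamethasone, and 229, 219 and 217 with THSG added. The vehicle libraries were the lowest 3. It rose from 195 ± 4.1 to 238 ± 8.4 FPKM (SD, n = 3 each), or 0.28 ± 0.043 in log2 (difference ± SE, limma adjusted p = 0.00033). Eif4a1, the paralog with the higher FPKM in vehicle, read 254, 257 and 254 FPKM there, 238, 238 and 238 with dexamethasone, and 247, 236 and 244 with THSG added. All dexamethasone libraries were below all vehicle libraries, yet the change of -0.10 did not pass (adjusted p = 0.06); with a correction for GC content and transcript length it did (adjusted p = 0.0177). In all, 33.3% of the Eif4a1 transcript's 50-base stretches also occur in other annotated genes, mostly the pseudogene Eif4a-ps4, so its reads may be split between them.

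The Eif4a2 to Eif4a1 ratio put these paralogs side by side. In log2 it was -0.39, -0.36 and -0.40 in vehicle, 0.00, -0.06 and 0.05 with dexamethasone, and -0.11, -0.11 and -0.17 with THSG added. The 3 groups did not overlap, and the combined treatment lay between the others. Both comparisons given next use the same dexamethasone libraries, so error in these would by itself favour such an order. The mean differences were 0.38 for dexamethasone against vehicle and -0.13 for THSG plus dexamethasone against dexamethasone, each at the smallest exact permutation p of 0.1 (adjusted p = 0.4 over the 12 comparisons). Without THSG replicate 3 the second was -0.11 (exact p = 0.2). Thus the FPKM of Eif4a2 went from below that of Eif4a1 to about the same value with dexamethasone. Because reads of Eif4a1 may be split with other genes, these values do not settle which paralog was more abundant.

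**Figure D2:**
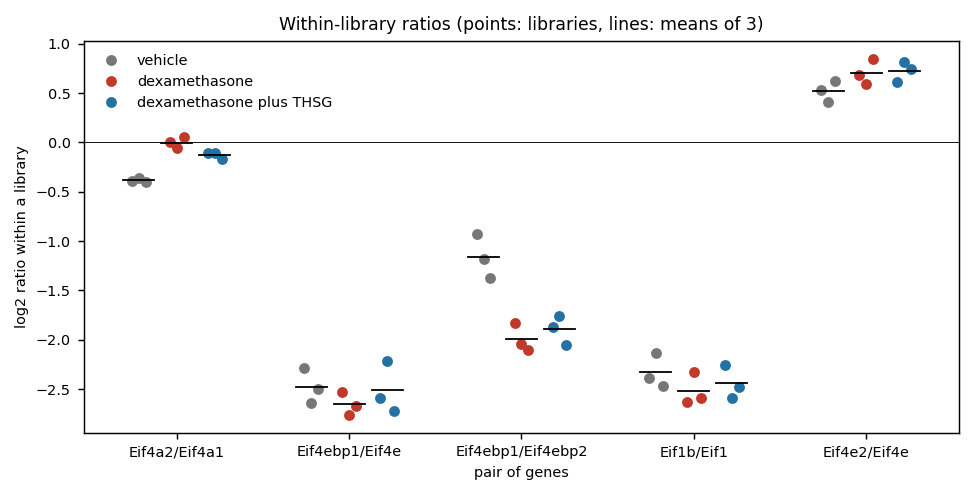
Within-library log2 ratios of 5 gene pairs (vertical axis, no unit), with points for libraries, colours for the 3 groups and black lines for means of 3. The Eif4a2/Eif4a1 ratio is at -0.40 to -0.36 in vehicle and -0.06 to 0.05 with dexamethasone, and Eif4ebp1/Eif4ebp2 is at -1.37 to -0.93 in vehicle and -2.10 to -1.83 with dexamethasone.

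The other genes listed with eIF4F changed less. Eif4h, whose product stimulates eIF4A, had 88.0, 78.8 and 83.8 FPKM in vehicle, 75.6, 78.0 and 67.9 with dexamethasone, and 76.7, 78.7 and 78.1 with THSG added. It fell narrowly (log2 fold change -0.18, SE 0.058, limma adjusted p = 0.0321), and the call was lost without vehicle replicate 1 (0.115), vehicle replicate 3 (0.072) or dexamethasone replicate 3 (0.118), and under each of 3 other scalings (0.0579 to 0.0956). Eif4e, the cap-binding protein, had 68.0, 75.1 and 62.4 FPKM in vehicle, 60.5, 64.4 and 54.2 with dexamethasone, and 61.5, 53.8 and 61.2 with THSG added. Its groups overlapped and it did not pass (log2 fold change -0.20, adjusted p = 0.0862), although it did with the GC and length correction (-0.29, adjusted p = 0.0257) and without vehicle replicate 3 (-0.26, 0.0372). Eif4g1, the scaffold, had 118, 115 and 116 FPKM in vehicle, 107, 114 and 107 with dexamethasone, and 111, 110 and 108 with THSG added. Dexamethasone libraries were below vehicle libraries without passing the test (-0.09, adjusted p = 0.0956). The remaining 6 genes (Eif4a3, Eif4b, Eif4e2, Eif4e3, Eif4g2 and Eif4g3) did not pass either. Eif4b passed under median-ratio and quantile scaling (limma adjusted p = 0.018 and 0.0406), Eif4g3 under median-ratio scaling (0.0458) and Eif4g2 with the GC and length correction (0.0371).

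**Figure D3:**
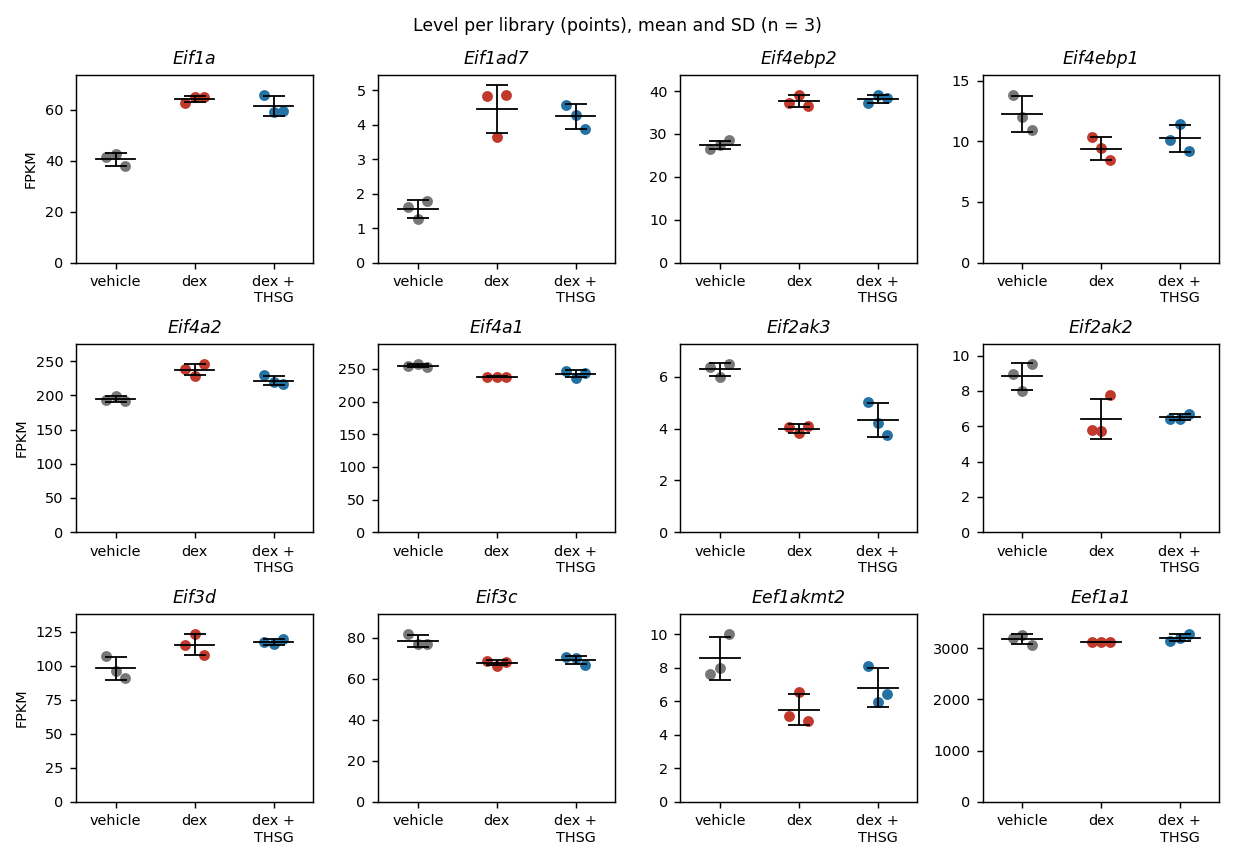
FPKM per library for 12 genes, with points for libraries and black bars for mean and SD of 3, each panel on its own axis from 0. Eif4ebp2 and Eif4a2 sit higher in all libraries with dexamethasone (dex), Eif2ak3 sits lower, and Eef1a1 stays between 3070 and 3285 FPKM in all 9.

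The kinases that phosphorylate eIF2 were split. This phosphorylation slows general initiation and favours translation of a few stress mRNAs such as that of Atf4. Eif2ak3, which encodes the endoplasmic reticulum stress sensor PERK, stood at 6.37, 6.0 and 6.48 FPKM in vehicle, 4.07, 3.82 and 4.11 with dexamethasone, and 5.04, 4.23 and 3.73 with THSG added. The vehicle libraries were above all 6 others. It fell from 6.29 ± 0.25 to 4.0 ± 0.16 FPKM (SD, n = 3 each; log2 fold change -0.64, SE 0.11, limma adjusted p = 0.000976). Eif2ak2, which encodes the RNA-activated kinase PKR, had 8.97, 8.01 and 9.51 FPKM in vehicle, 5.79, 5.70 and 7.74 with dexamethasone, and 6.43, 6.41 and 6.70 with THSG added. Dexamethasone replicate 3 came close to the lowest vehicle library but did not reach it, and the fall passed the test (log2 fold change -0.47, SE 0.12, limma adjusted p = 0.00925). Eif2ak4, the amino acid sensor GCN2, had 5.20, 4.57 and 5.64 FPKM in vehicle, 5.21, 5.30 and 5.09 with dexamethasone, and 4.53, 5.12 and 5.20 with THSG added. Those groups overlapped throughout, with a log2 fold change of 0.02 (95% interval -0.20 to 0.24, adjusted p = 0.889). Eif2ak1, the heme-regulated kinase, differed by 0.09 in log2 (adjusted p = 0.378).

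The genes listed for eIF2 and start codon selection, and those for eIF2B, gave no call. Of the 11 genes listed for the ternary complex and start codon selection, 0 passed (smallest limma adjusted p = 0.119, for Eif1ad). With an unadjusted p under 0.05 there were 0, and 9 had intervals within a 1.25-fold change. That list holds Eif1ax but not Eif1a, Eif1ad7 or Eif1ad10. These genes of the eIF1A type were grouped apart and were called higher, as given below. Eif2s3x, the gamma subunit of eIF2, passed with the GC and length correction (-0.11, limma adjusted p = 0.0448). Eif2s1, the eIF2 subunit that is phosphorylated, had 24.4, 25.6 and 23.5 FPKM in vehicle, 23.2, 24.9 and 23.5 with dexamethasone, and 24.1, 21.4 and 24.2 with THSG added. The groups overlapped (log2 fold change -0.04, 95% interval -0.17 to 0.10, adjusted p = 0.702). Among the 5 subunits of eIF2B, which reloads eIF2 with GTP, 0 passed as well (smallest limma adjusted p = 0.125, 0 unadjusted), with log2 fold changes from -0.11 for Eif2b2 to 0.17 for Eif2b4. Eif2b4 passed with the GC and length correction (0.24, limma adjusted p = 0.0423) and without dexamethasone replicate 2 (0.25, 0.0277).

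The eIF3 complex, the large scaffold on the small ribosomal subunit, had 3 of 14 genes higher and 2 lower with dexamethasone. Its vehicle means ran from 11.1 FPKM for Eif3j1 to 175 for Eif3h, with a median of 89.7. Eif3c was at 82.0, 77.0 and 76.8 FPKM in vehicle, 68.8, 66.4 and 68.2 with dexamethasone, and 70.4, 70.4 and 66.7 with THSG added. All 3 vehicle values exceeded the other 6, and the fall was -0.21 in log2 (SE 0.044, limma adjusted p = 0.00292). Eif3k was at 91.2, 90.7 and 85.7 FPKM in vehicle, 79.7, 80.7 and 80.4 with dexamethasone, and 87.0, 86.7 and 83.2 with THSG added. It was lowest in the dexamethasone libraries (log2 fold change -0.15, SE 0.041, limma adjusted p = 0.0142), a call that median-ratio scaling removed (adjusted p = 0.0658).

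Eif3d, a subunit that can itself bind the cap of some mRNAs, was at 107, 95.9 and 91.3 FPKM in vehicle, 116, 124 and 108 with dexamethasone, and 117, 116 and 120 with THSG added. Vehicle replicate 1 nearly met dexamethasone replicate 3, and without dexamethasone replicate 2 the call was lost (adjusted p = 0.0557). With all libraries it rose by 0.24 in log2 (SE 0.064, limma adjusted p = 0.0127). Eif3e had 128, 139 and 133 FPKM in vehicle, 150, 152 and 156 with dexamethasone, and 156, 140 and 138 with THSG added. Its rise (log2 fold change 0.20, SE 0.053, limma adjusted p = 0.0148) shrank to 0.05 once GC content and length were corrected for (adjusted p = 0.391) and lost its call without vehicle replicate 1 (0.0554). Eif3j2 had 13.2, 14.1 and 13.6 FPKM in vehicle, 15.1, 16.0 and 16.8 with dexamethasone, and 16.5, 14.3 and 14.3 with THSG added. Dexamethasone libraries were the higher (log2 fold change 0.22, SE 0.072, limma adjusted p = 0.0329). The gene is uncertain, because 91.8% of its 50-base stretches also occur in other genes, nearly all in its paralog Eif3j1, which did not pass (0.08, adjusted p = 0.363), and its call was lost without vehicle replicate 1 (0.0967), vehicle replicate 3 (0.0729), dexamethasone replicate 2 (0.076) or dexamethasone replicate 3 (0.109), and with a replicate block (0.057). The other 8 subunits had log2 fold changes from -0.11 for Eif3b to 0.05 for Eif3a, and Eif3b passed without vehicle replicate 2 (-0.14, limma adjusted p = 0.0452).

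The largest rises with dexamethasone among the 66 genes belonged to those of the eIF1A type. The protein eIF1A sits in the decoding site of the small subunit and helps the scanning ribosome find the start codon. Eif1a was at 41.4, 42.7 and 37.8 FPKM in vehicle, 62.7, 65.0 and 65.0 with dexamethasone, and 65.9, 59.1 and 59.4 with THSG added. No treated library came near the vehicle range. It rose from 40.6 ± 2.5 to 64.2 ± 1.3 FPKM (SD, n = 3 each), or 0.66 ± 0.058 in log2 (difference ± SE, limma adjusted p = 4.18e-06). Its X-linked paralog Eif1ax had a vehicle mean of 16.7 ± 0.40 and a dexamethasone mean of 16.2 ± 0.74 FPKM and did not pass (log2 fold change -0.04, 95% interval -0.18 to 0.09, adjusted p = 0.635). Whether these paralogs differed in response was not tested.

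Eif1ad7 and Eif1ad10 are lowly expressed copies of the same family, which the GENCODE annotation used here lists under provisional symbols. Eif1ad7 had 1.62, 1.25 and 1.78 FPKM in vehicle, 4.84, 3.65 and 4.87 with dexamethasone, and 4.58, 4.28 and 3.87 with THSG added. Every treated library was above the vehicle libraries (log2 fold change 1.47, SE 0.16, limma adjusted p = 2.06e-05). Eif1ad10 had 1.69, 1.76 and 2.37 FPKM in vehicle, 3.38, 3.84 and 3.70 with dexamethasone, and 3.21, 2.38 and 2.32 with THSG added. The dexamethasone libraries were the highest (log2 fold change 0.89, SE 0.16, limma adjusted p = 0.00135), while those with THSG reached down to the top of the vehicle range. Both lie near the lower limit of the table, where the fold change on the log2(FPKM + 0.1) scale understates a change.

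These copies are hard to tell apart by short reads, which is why a stretch of each is shown. The coding sequence of Eif1ad10, 435 bases long, is identical to that of Eif1ad7 at 429 positions (98.6%), to Eif1a at 413 (94.9%) and to Eif1ax at 370 (85.1%). Of all 50-base stretches of the transcript, 100% in Eif1ad10, 77.9% in Eif1ad7, 4.05% in Eif1a and 0% in Eif1ax also occur in another annotated gene, so the values of the 2 copies may mix reads of several loci. Coding bases 340 to 429 in GENCODE transcripts of the build GRCm38 hold 4 of the 6 differences between the 2 copies, marked in capitals. Eif1ad10 carries the stretch at chr12:88249672-88249761, minus strand, and Eif1ad7 within chr12:88270640-88274500, minus strand.
Eif1ad10: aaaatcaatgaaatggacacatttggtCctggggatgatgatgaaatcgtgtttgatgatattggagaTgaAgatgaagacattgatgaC
Eif1ad7: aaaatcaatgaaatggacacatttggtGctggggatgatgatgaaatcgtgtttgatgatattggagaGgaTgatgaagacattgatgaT

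Of the 6 genes listed as elongation factors by symbol, 1 fell and 0 rose. Eef1e1, in this list only for its symbol, did not pass (log2 fold change -0.14, limma adjusted p = 0.433). Eef1a1 had 3206, 3262 and 3070 FPKM in vehicle, 3130, 3117 and 3119 with dexamethasone, and 3143, 3203 and 3285 with THSG added. The dexamethasone libraries fell inside the vehicle range, and the log2 fold change of -0.03 (95% interval -0.15 to 0.10, adjusted p = 0.769) did not pass except under quantile normalization (-0.17, adjusted p = 0.0101). Eef2, the translocase, had 1046, 953 and 984 FPKM in vehicle, 1059, 1063 and 993 with dexamethasone, and 1015, 1102 and 1066 with THSG added. Its groups overlapped (log2 fold change 0.06, adjusted p = 0.419), and it passed where GC content and length were corrected for (0.14, adjusted p = 0.0117). Eef1g, a subunit of the complex that recharges eEF1A with GTP, had 124, 124 and 118 FPKM in vehicle, 105, 113 and 101 with dexamethasone, and 113, 105 and 108 with THSG added. All vehicle libraries were above the rest (log2 fold change -0.20, SE 0.051, limma adjusted p = 0.0104). Reads of Eef1a1 and Eef1g may be shared with other annotated genes, which hold 59.2% and 64.3% of their 50-base stretches. The partner subunits Eef1b2 (0.12, adjusted p = 0.21, though 0.0313 under quantile normalization) and Eef1d (-0.08, adjusted p = 0.218) did not pass.

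Of 3 enzymes that methylate eEF1A, Eef1akmt1 and Eef1akmt2 fell, and Eef1akmt4 did not pass (log2 fold change -0.24, limma adjusted p = 0.346). Eef1akmt2 had 7.63, 8.02 and 10.0 FPKM in vehicle, 5.12, 6.58 and 4.83 with dexamethasone, and 8.11, 5.96 and 6.41 with THSG added. Dexamethasone libraries were all below vehicle libraries, and those with THSG spanned both (log2 fold change against vehicle -0.63, SE 0.15, limma adjusted p = 0.00698). Eef1akmt1 had 17.5, 21.8 and 18.0 FPKM in vehicle, 13.0, 17.5 and 12.8 with dexamethasone, and 15.1, 15.9 and 14.2 with THSG added. The highest dexamethasone library lay only just below the lowest vehicle library, and the fall of -0.41 (SE 0.12, limma adjusted p = 0.0201) was not called without vehicle replicate 2 (0.0806), dexamethasone replicate 1 (0.0755) or dexamethasone replicate 3 (0.0795). Eef2k, the kinase that inactivates eEF2, had 9.39, 7.25 and 8.01 FPKM in vehicle, 7.58, 7.11 and 7.96 with dexamethasone, and 7.24, 5.77 and 6.55 with THSG added. Vehicle and dexamethasone overlapped (-0.11, 95% interval -0.36 to 0.13, adjusted p = 0.47), while the combined treatment passed narrowly against vehicle (-0.33, limma adjusted p = 0.046). That call was lost without vehicle replicate 1 (0.171), vehicle replicate 3 (0.0819), THSG replicate 2 (0.168) or THSG replicate 3 (0.0917), and under median-ratio (0.0638) and quantile scaling (0.0733).

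Eif5a, which eases translation of difficult peptide bonds and carries the modified residue hypusine, had 329, 324 and 312 FPKM in vehicle, 299, 301 and 305 with dexamethasone, and 331, 286 and 293 with THSG added. The dexamethasone libraries were below the vehicle libraries without passing the test (log2 fold change -0.09, adjusted p = 0.215). Eif6, which keeps ribosomal subunits apart, had 45.9, 44.5 and 44.5 FPKM in vehicle, 46.8, 48.1 and 38.9 with dexamethasone, and 46.5, 44.2 and 45.1 with THSG added. Its dexamethasone libraries straddled the vehicle range (log2 fold change -0.02, adjusted p = 0.868).

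**Figure D4:**
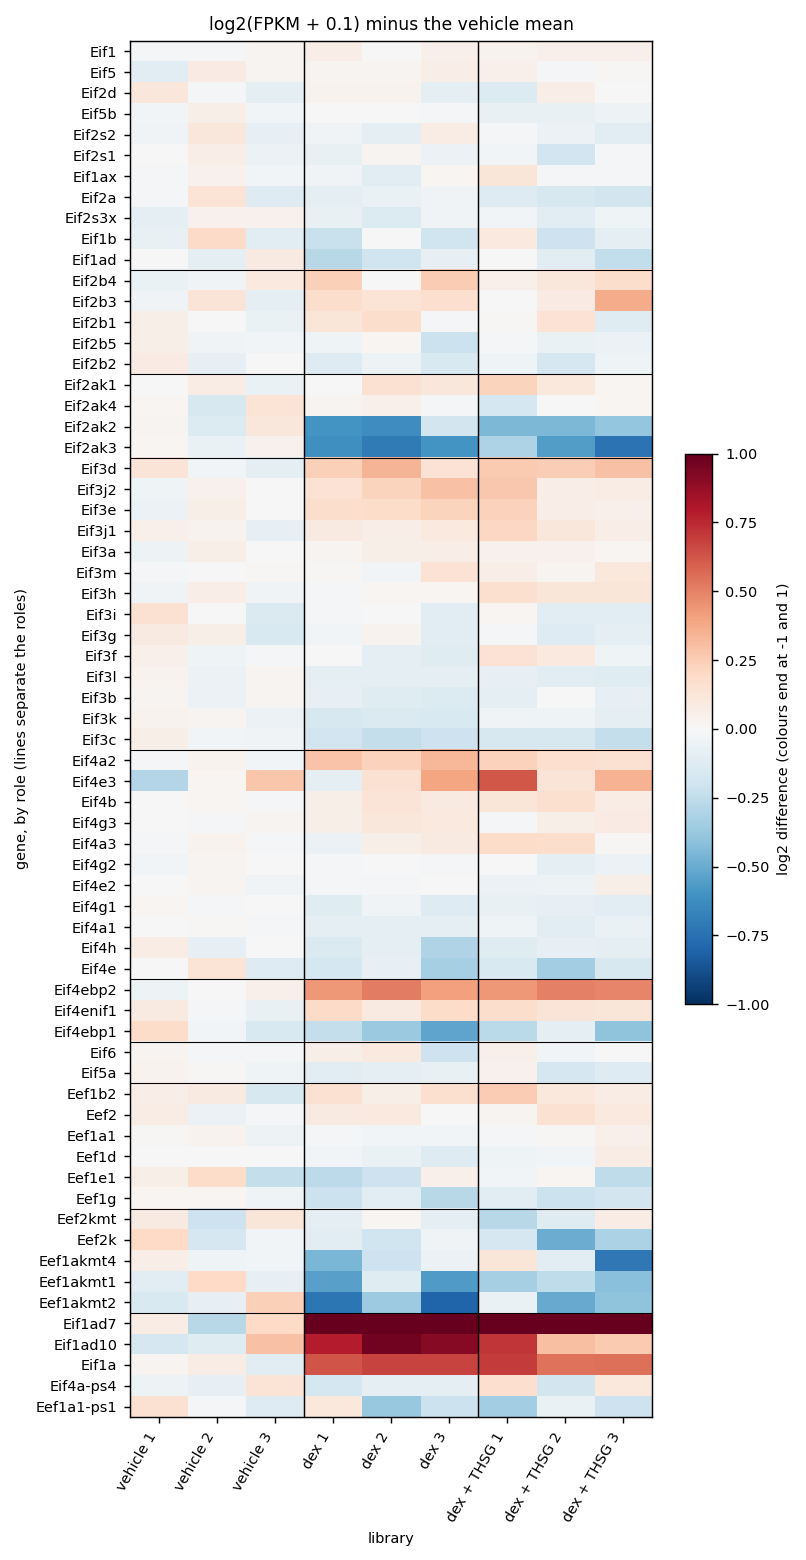
Log2(FPKM + 0.1) of the 66 genes (rows, by role) in the 9 libraries (columns), as the difference from the vehicle mean, red above and blue below, with colours ending at -1 and 1. The 6 columns with dexamethasone resemble each other in the rows with the strongest colours, such as Eif1ad7, Eif1a, Eif4ebp2 and Eif2ak3.

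Other genes of the translation pathway, listed by role, were called in 21 of 57 cases (36.8%), 8 higher and 13 lower, beside 33.6% of the whole table (12.7% higher, 20.9% lower). Under median-ratio scaling the split was 10 higher and 9 lower (52.6% higher, against 38.1% with the values as deposited). The whole table then gave 1739 higher and 1766 lower, against 1362 and 2239 as deposited. Among 18 genes of mTORC1 and its regulators 5 rose and 5 fell, and among 10 genes of the integrated stress response 3 rose and 5 fell. Of 8 genes for the modification of eIF5A and eEF2, 2 fell and 0 rose. One of 7 termination and recycling genes fell, and 0 of 6 poly(A)-binding genes (0 unadjusted) and 0 of 8 mitochondrial factors (1 unadjusted) passed in limma.

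Inhibitors of mTORC1 rose and fell. Sesn1, a stress-induced inhibitor of mTORC1, was at 18.1, 19.1 and 20.1 FPKM in vehicle, 47.1, 49.9 and 51.7 with dexamethasone, and 53.0, 51.5 and 49.0 with THSG added, far above vehicle in all treated libraries (log2 fold change 1.37, limma adjusted p = 7.58e-09). Deptor, which binds and inhibits mTOR, was at 41.2, 43.9 and 42.5 FPKM in vehicle, 95.4, 93.7 and 102 with dexamethasone, and 93.7, 93.4 and 93.7 with THSG added, again without overlap (1.19, limma adjusted p = 3.66e-09). Sesn3, another sestrin, went the other way, from 18.0, 16.1 and 17.5 FPKM to 7.25, 8.79 and 8.67 with dexamethasone and 7.91, 8.62 and 8.84 with THSG added (-1.06, limma adjusted p = 2.72e-06).

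The transcription factor Atf4, the effector of eIF2 phosphorylation, was at 134, 133 and 133 FPKM in vehicle, 97.0, 93.8 and 95.6 with dexamethasone, and 101, 103 and 93.9 with THSG added. All treated libraries lay below vehicle (log2 fold change -0.48, limma adjusted p = 5.3e-06). Atf5, a related factor translated in the same way, fell by 1.51 in log2 (limma adjusted p = 9.04e-06), and Trib3, a target of Atf4, fell by 1.86 (limma adjusted p = 4.42e-07). Dhps, which starts hypusine formation on eIF5A, had 33.2, 30.9 and 32.5 FPKM in vehicle, 23.3, 23.1 and 19.6 with dexamethasone, and 25.8, 24.0 and 27.5 with THSG added. It fell clear of the vehicle range (log2 fold change -0.55, limma adjusted p = 0.000145), whereas its substrate Eif5a did not pass. Dph7, of the diphthamide pathway that modifies eEF2, fell by 0.87 (limma adjusted p = 0.0136), a call lost without dexamethasone replicate 3 (0.053). Mcts1, a recycling factor, fell by 0.20 (limma adjusted p = 0.0156), and lost its call without vehicle replicate 2 (0.0636) or dexamethasone replicate 2 (0.055), and under median-ratio (0.0645) and quantile scaling (0.0506).

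Adding THSG to dexamethasone left no translation factor gene past the test. The comparison shares its dexamethasone libraries with the one against vehicle. In limma 0 of 66 members and 0 of 10716 genes passed (0% of the table), with a smallest adjusted p of 0.581 among the members. At an unadjusted p under 0.05 there were 5 members (Eif3h, Eif1ad10, Eif3f, Eif4a2 and Eif3k) and 7.25% of all genes. In 6 members the groups did not overlap, 3 higher and 3 lower, against 13.3% of all genes. For 55 of 66 members the 95% interval lay within a 1.25-fold change, so a larger shift of these members falls outside their intervals. Over all 10716 genes the count was 6964, with wider intervals (median half-width 0.18 in log2, against 0.14 for members).

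The members nearest to a difference are given by value. Eif3h, an eIF3 subunit, had 171, 184 and 171 FPKM in vehicle, 174, 178 and 177 with dexamethasone, and 195, 190 and 190 with THSG added. The THSG libraries were above both other groups (log2 fold change against dexamethasone 0.12, 95% interval 0.03 to 0.21, limma adjusted p = 0.581). For Eif1ad10 the 3 THSG libraries were below the 3 dexamethasone libraries (-0.46, 95% interval -0.82 to -0.11, limma adjusted p = 0.594). Eif4a2 differed by -0.10 in log2 (95% interval -0.19 to -0.01, limma adjusted p = 0.683), and its THSG libraries met the dexamethasone range at 1 library. Among members called with dexamethasone, the log2 fold change on adding THSG was 0.02 for Eif4ebp2 (95% interval -0.08 to 0.13), -0.07 for Eif1a (-0.19 to 0.06) and 0.10 for Eif2ak3 (-0.14 to 0.35). It was 0.30 for Eef1akmt2 (-0.02 to 0.63), which had changed by -0.63 with dexamethasone, and 0.12 for Eif4ebp1 (-0.12 to 0.36), which had changed by -0.38. For Eef1akmt2 and Eif4ebp1 the intervals span from no difference to a large share of the change with dexamethasone. The same held for other called members, among them Eif4h (0.08, -0.05 to 0.20, after -0.18) and Eef1akmt1 (0.08, -0.19 to 0.34, after -0.41). Eif3k had 0.09 (0.00 to 0.18) after -0.15. The intervals of Eif4ebp2 and Eif1a did not reach a large share of their change.

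Against vehicle, the combined treatment gave 12 called members (18.2%), 7 higher and 5 lower, beside 29.1% of the table (12.1% higher, 17% lower). Under median-ratio scaling the split was 8 higher and 3 lower (72.7% higher, against 58.3% as deposited). The whole table then gave 1563 higher and 1505 lower, against 1294 and 1826 as deposited. The comparison shares its vehicle libraries with the first one, so the values are given only side by side. Eif4ebp2 had 0.48 here and 0.45 with dexamethasone alone, Eif2ak3 -0.54 and -0.64, Eif1a 0.60 and 0.66, and Eif4a2 0.18 and 0.28. Of the 17 members called with dexamethasone alone, 8 did not pass here. Another 3 passed here and not there, namely Eif3h (0.13, limma adjusted p = 0.031), Eif4b (0.12, 0.0486) and Eef2k (-0.33, 0.046). These calls were narrow. Eif3h lost its call without any one of vehicle replicates 1 and 3 and THSG replicates 1, 2 and 3 (limma adjusted p = 0.0625 to 0.0922). Eif4b lost it without any single library of either group (0.0541 to 0.164) and with a replicate block (0.0557), and Eef2k in the cases given above. Whether the responses differed is the comparison of THSG plus dexamethasone with dexamethasone, in which these 3 genes did not pass.

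Promoter letters were searched as a description in RefSeq windows of the build GRCm38.p6, from 250 bases before to 50 after each annotated start, which were found for 49 members. The E-box CACGTG, the sequence bound by factors of the Myc type and the same on both strands, occurred in 12 of these 49 members (24.5%), in 12.3% of the 8254 table genes with a window and in 7.15% of all 32851 windows. The 12 were Eef1akmt4, Eef2, Eef2k, Eif1b, Eif3a, Eif3f, Eif3k, Eif4a1, Eif4e, Eif4g1, Eif4h and Eif5a. With dexamethasone 10 of the 12 had a log2 fold change below 0, 2 of them (Eif3k and Eif4h) called lower and 0 called higher, with a median of -0.11. The 49 members with a window held only 3 of the 8 members called higher, but 6 of the 9 called lower. Over all table genes with the motif, 54% were below 0 and 18.2% called lower, against 59.8% and 21.1% without it. Among the 37 members without the motif 21 were below 0, 3 were called higher and 4 lower, and the median was -0.01. Over all table genes the medians were -0.03 with and -0.05 without the motif. The windows of the 2 called genes, of the cap-complex genes Eif4e and Eif4g1, and of Eef2 are shown with 20 bases on each side of the motif, which is in capitals, on the strand of the gene. They lie at chr5:134639480-134639525 on the minus strand (Eif4h, 96 bases before the start), chr7:28981907-28981952 on the minus strand (Eif3k, 44 bases), chr3:138527184-138527229 on the plus strand (Eif4e, 64 bases), chr16:20672653-20672698 on the plus strand (Eif4g1, 54 bases) and chr10:81176568-81176613 on the plus strand (Eef2, 43 bases).
Eif4h: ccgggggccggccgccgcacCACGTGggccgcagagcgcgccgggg
Eif3k: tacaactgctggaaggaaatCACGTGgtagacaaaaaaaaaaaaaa
Eif4e: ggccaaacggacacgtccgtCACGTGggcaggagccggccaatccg
Eif4g1: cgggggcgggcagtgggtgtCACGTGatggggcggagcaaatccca
Eef2: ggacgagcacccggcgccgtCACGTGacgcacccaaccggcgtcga

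The other motifs searched, on both strands, were rarer. The C/EBP-ATF core TGATGNAA occurred in 2 of 49 members (Eef2k and Eif2s3x, 4.08%), in 2.58% of table genes with a window and in 3.97% of all windows. The palindromic glucocorticoid response element, with its conserved bases only, occurred in 0 of 49 members and in 0.475% of all windows, which says only that these letters were not in these windows.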

How the data were processed

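RNA was extracted and stranded mRNA libraries were made with a TruSeq kit, per the labels' protocols. STAR 2.7.10a, featureCounts and the build GRCm39 appear in the submitters' processing notes. The values deposited by the authors are fractional although called counts, and were taken to be FPKM made from fragments scaled to length and library size, which neither header nor label states. The steps and the low-value filter behind them are not given in the sources used here. Of 10716 gene identifiers 10670 matched GENCODE annotation of GRCm38, which served for transcript sequence, length and GC content; coordinates given are of that build and not the authors'. Log2(FPKM + 0.1) was analysed with limma 3.58.1 in R 4.3.3 over all 9 libraries with 1 mean per group and an intensity trend, two-sided, with Benjamini-Hochberg adjustment over all genes and a threshold of 0.05, in place of a count test. The fit was tested on simulated data. Ratios within libraries and the summed level were compared by exact permutation tests. Depth is unknown, so precision comes from the spread of 3 libraries.

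Members were taken by symbol, and the role lists, pathway lists and markers were chosen with earlier results of these data known. Of the coding genes that fit the naming rule in the annotation, 7, among them Eef1a2, are not analysed here. Library values are given for the called members and for a list of 14 well-known members where present, and pathway genes by smallest p in their list; Eif1ax, Eif2ak1 and other members named without a call were chosen after their values were seen. Alternatives covered pseudocounts of 0 and 1, scaling (median-ratio, equal sums, quantile), a mean of at least 5 FPKM, no intensity trend, only the compared groups, a replicate block, a GC and length correction (splines with 4 degrees of freedom), and leaving out each library.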

Additional observations from a re-analysis of the deposited data

How the results depend on the processing

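For dexamethasone against vehicle, the 17 called members became 16 with a replicate block, 22 with the GC and length correction, 19 with both, 20 under quantile normalization, 14 of 61 with a mean of at least 5 FPKM, and 13 to 17 with a library left out. The 17 called members kept their sign under all alternatives. Eif1a, Eif4ebp2, Eif4a2, Eif3c, Eef1akmt2, Eif2ak2 and Eef1g stayed called in each, as did Eif2ak3, Eif1ad7 and Eif1ad10 wherever they were tested. The replicate block removed the call of Eif3j2. Checks were counted for the called members, the listed well-known members and the pathway genes with the smallest p in their list. Over these genes and all alternatives a call was lost in 30 checks, gained in 15 and left as it was in 714. Calls gained by Eif4enif1, Eif2b4, Eif4b, Eif4g2, Eif4g3, Eif3b, Eif2s3x and Eef1b2 are not in these counts. Of the uncalled genes in the counts Eif6 changed sign in 6 alternatives, Eif2ak4 in 3, and Eef1a1, Eif2s1 and Mtif3 in 1 each. For THSG plus dexamethasone against dexamethasone 0 members passed under all alternatives run, beside at most 1 gene of the whole table. THSG plus dexamethasone against vehicle gave 8 to 16 calls (12 as reported; 8 without vehicle replicate 1, without THSG replicate 2 or without the intensity trend), and the other pathway genes 14 to 22 (21 as reported; 14 without vehicle replicate 2 or without dexamethasone replicate 2). Same-numbered libraries of different groups deviated together with r from -0.09 to 0.11, so the replicate numbers were not taken as pairs. Median-ratio and quantile scaling moved the median of all genes from -0.05 to 0.00 in log2. Without read counts no counting error could be given, which limits the genes near 1 FPKM most. The planned ratio of Eef1a2 to Eef1a1 was not run.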
